A study of Mus musculus and Mus musculus musculus x Mus musculus castaneus with 52 samples.

Results

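The experiment took LIF away from mouse embryonic stem cells (ESCs) for 24 h. Its members were chosen by label: every library of the 4 ESC lines sampled at 0 h and at 24 h of withdrawal, which is 16 of the 52 samples of the series (8 libraries and 8 technical repeats) and 8 of the 24 columns of the expression table, 1 column for each line and time. The repeats have no column of their own, and whether they were merged with the first library is not stated. The lines were F121, a wild-type XX line; V6.5, a wild-type XY line; and 2 independent XX lines heterozygous for Dusp9 (Dusp9+/-), called clone 1 and clone 2 here. Per the labels, the 3 XX lines came from a musculus by castaneus cross and V6.5 was Mus musculus, so that sex, strain background and line cannot be told apart. All lines were grown with serum and LIF and without feeder cells, and at 24 h all had been in medium with 10% serum and no LIF. There was 1 line of each wild-type genotype, so the 4 lines served as the replicates (n = 4 at each time), and p-values measure the spread between these libraries.

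LIF is a cytokine that binds the receptor pair Lifr and Il6st (gp130) and, through Jak kinases, activates the transcription factor Stat3. In mouse ESCs this signal maintains the naive state, which resembles the epiblast of the preimplantation embryo. Without it the cells leave that state, while FGF and ERK signalling moves them through a formative state, marked by Otx2, Pou3f1 and Fgf5, towards the germ layers. Dusp9 is an X-linked phosphatase that dampens ERK.

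Levels are log2 CPM, that is, reads relative to the size of the library. A change is the 24 h level minus the 0 h level on that log2 scale, and is given as the fitted estimate ± its standard error with a Benjamini-Hochberg adjusted p. A gene was called where that p was below 0.05. Values listed by line follow the order F121, V6.5, clone 1 and clone 2. Calls were made for 4688 (32.7%) of the 14335 genes in the fit, 2410 (16.8%) higher and 2278 (15.9%) lower at 24 h, and the median change over all genes was 0.02. The 4 libraries of each time did not overlap in 2374 genes (16.6%), of which 2159 were called. The called genes moved the same way in all 4 lines in 4527 cases (96.6%). A call over these same lines favours such genes, so this share is no separate measure of how far the lines agree. The number called was 1625 without clone 2, 2810 without clone 1 and 3086 without the 24 h library of clone 2. Of the 14335 genes, 742 were called higher and 878 lower without clone 2, and 1304 and 1493 without clone 1. The same counts were 1690 and 1704 without F121 and 1747 and 1712 without V6.5. They were 1841 and 1766 with line as a block and 1991 and 1955 with the fibroblast level as a covariate. Shifts in the list counts below stand beside these shifts over all genes. For each gene list below, the numbers called higher and lower are repeated, in that order, for any fit that moved one of them by over 1.5 times: without 1 line, with line as a block (the block) or with the fibroblast level as a covariate (the covariate). Decreases were the larger changes, with 824 called genes lower by more than 2-fold against 394 higher, and 179 lower by more than 4-fold against 45 higher.

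**Figure D1:**
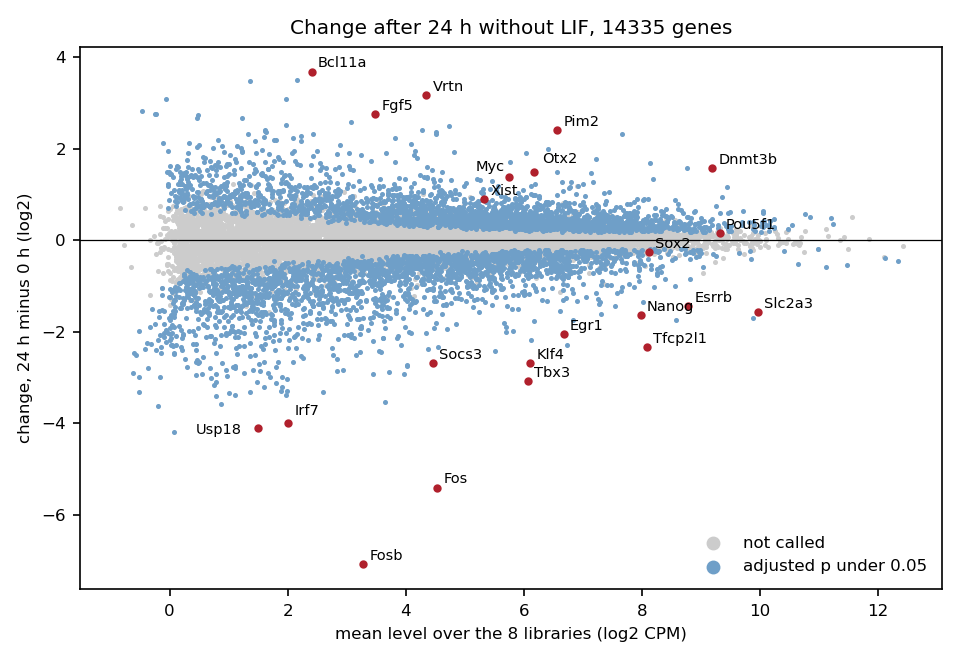
Change at 24 h (log2, vertical axis) against mean level (log2 CPM, horizontal axis) for each gene tested, with called genes in blue, the others in grey and genes named in the text in red with their symbols. Among changes of more than 4-fold, the 179 decreases outnumber the 45 increases.

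Recovered reads ran from 10241419 to 13346033 per library. Dusp9, the gene mutated in the clones, had levels of 6.93, 5.91, 5.96 and 7.43 at 0 h and 7.84, 6.27, 7.71 and 6.58 at 24 h (0.54 ± 0.34, adjusted p = 0.258). It was not called over all lines, but was with the clone libraries paired the other way, a fit added after the data were seen (0.54, adjusted p = 0.0139), in the wild-type lines alone (0.63, adjusted p = 0.0112) and with the covariate (1.11, adjusted p = 0.0464). Its level in the clones lay within or above the range of the wild-type lines at each time, and the order of the clones was opposite at the 2 times, so their names below mean the libraries labelled clone 1 and clone 2. For a gene with such an opposite order, pairing the clones the other way must lower the spread. The p of that fit therefore cannot decide whether Dusp9 rose. Whether the clones were exchanged between the times cannot be settled from the files. Xist, whose RNA spreads over the X chosen for silencing, was low in V6.5 (-0.02 and 0.45) and between 4.24 and 8.16 in the XX libraries. Y-linked transcripts (Ddx3y, Eif2s3y, Kdm5d and Uty) were nevertheless read in every XX library, at a summed CPM of 18.5, 6.89 and 12.0 in F121, clone 1 and clone 2 at 0 h and 5.42, 5.0 and 1.63 at 24 h, against 108 and 112 in V6.5.

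Fibroblast markers also moved with time, although the labels name no feeders. The 5 defining markers (Col1a1, Col3a1, Dcn, Thy1 and Postn) summed to 445, 466, 43.8 and 102 CPM at 0 h and 139, 116, 114 and 57.5 CPM at 24 h. As labelled, they were lower at 24 h in 3 lines and higher in clone 1. With the clone libraries paired the other way, the sums would run from 43.8 to 57.5 CPM and from 102 to 114 CPM, higher at 24 h in both clones. None was at 0 in all libraries. In bulk RNA, fewer cells of a type and less RNA per cell cannot be told apart. Because clone 1 as labelled went the other way, its own change is given for some of the gene groups and genes below. A fit with the fibroblast level as a covariate, added after the data were seen, called 3946 genes, of which 3233 were among the 4688. That level is the log2 of the summed CPM of the 30 members of the fibroblast gene list in the table, not of the 5 markers alone. Col1a1, Col3a1 and Vim are part of it, so for them the covariate holds the gene itself. The pluripotent markers Pou5f1, Sox2, Nanog and Sall4 summed to 2040, 1740, 1610 and 1740 CPM at 0 h and 1460, 1430, 1610 and 1710 CPM at 24 h, so that each library carried the defining transcripts of its labelled cell type.

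**Figure D2:**
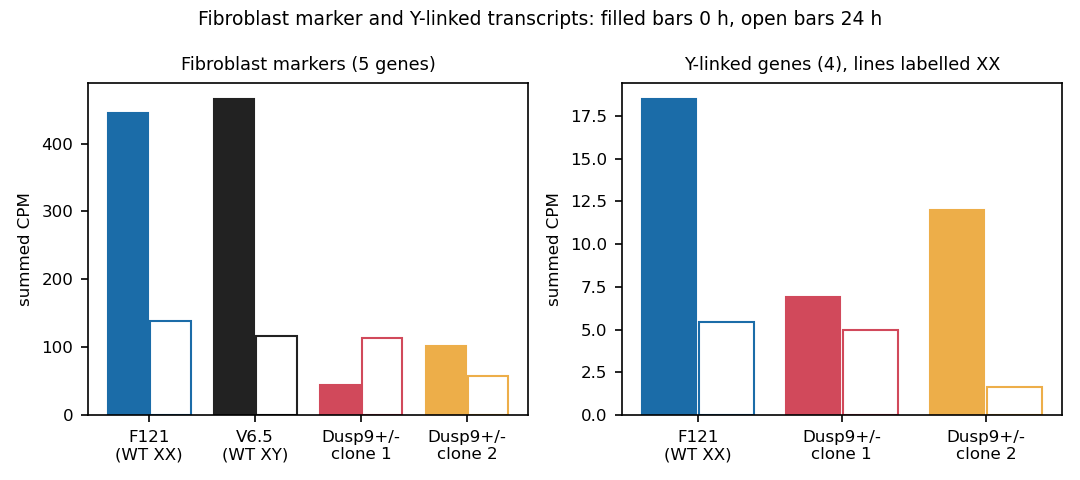
Summed CPM of the 5 defining fibroblast markers in each line (left) and of 4 Y-linked genes in the lines labelled XX (right), with a filled bar for 0 h and an open bar for 24 h, 1 library each. The fibroblast sum is lower at 24 h in F121, V6.5 and clone 2 and, as labelled, higher in clone 1.

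Most naive pluripotency genes fell. Of 27 tested members of this list, 19 were called lower and 1 higher (Gbx2), beside 15.9% lower and 16.8% higher among all genes, with a median change of -0.84 against 0.02 over all genes. The median was -1.28, -1.5, -0.70 and -0.54 in the 4 lines. The counts were 2 and 17 without clone 1. Klf4, a Stat3-induced factor that sustains self-renewal (chr4:55527137-55532475, GRCm38.p6), stood at 7.65, 7.76, 6.92 and 7.50 log2 CPM at 0 h and 4.95, 4.14, 5.14 and 4.83 at 24 h. All 4 libraries at 24 h lay below all 4 at 0 h, a 6.46-fold decrease (-2.69 ± 0.24, adjusted p = 0.000638). Nanog, which stabilises the naive network, went from 9.44, 8.51, 8.69 and 8.56 to 7.62, 6.32, 7.26 and 7.45. It fell 3.11-fold without overlap between times (-1.64 ± 0.15, adjusted p = 0.000681).

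Tfcp2l1, a transcription factor downstream of Stat3, had levels of 9.45, 9.63, 8.93 and 9.01 at 0 h and 6.57, 6.78, 6.97 and 7.35 at 24 h. The times did not overlap, and the fall was 5.05-fold (-2.34 ± 0.21, adjusted p = 0.000623). Esrrb, an orphan nuclear receptor of the same network, moved from 9.61, 9.68, 9.58 and 9.14 to 8.24, 7.64, 7.87 and 8.51 (-1.44 ± 0.20, adjusted p = 0.00205), and was also lower in each line. The steepest fall among the naive genes named by rule was that of Tbx3, a T-box factor, at 8.47-fold (-3.08 ± 0.28, adjusted p = 0.000631). Tcl1, a co-activator of Akt kinase, fell 2.99-fold (-1.58 ± 0.11, adjusted p = 0.000371). Among genes chosen after their values were seen, Prdm14 fell 4.07-fold, Klf2 2.49-fold and Klf5 2.23-fold (changes of -2.03, -1.32 and -1.16, adjusted p = 0.00196, 0.00152 and 0.00567). Zfp42 (Rex1), a common reporter of the naive state, fell by less (-0.63 ± 0.10, adjusted p = 0.00365).

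In the core pluripotency list, of 14 tested, 8 were called higher and 0 lower, beside 16.8% and 15.9% of all genes, with a median of 0.41. These counts became 7 and 1 without F121, 4 and 0 without clone 2. Pou5f1 (Oct4), the factor shared by naive and primed cells, was at 9.20, 9.22, 9.16 and 9.40 at 0 h and 9.26, 9.30, 9.47 and 9.54 at 24 h. Its times overlapped and it was not called (0.15 ± 0.07, adjusted p = 0.155). Sox2, its partner on DNA, changed by -0.26 ± 0.09 (adjusted p = 0.0618) and was not called either. The called members with the lowest p were Zfp281 (0.62 ± 0.06, adjusted p = 0.000856), a zinc-finger factor of the exit from the naive state, Zscan10 (0.67 ± 0.08, adjusted p = 0.00139) and Lin28a (0.63 ± 0.10, adjusted p = 0.00316), which blocks let-7 maturation. Each was higher at 24 h in all 4 lines.

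**Figure D3:**
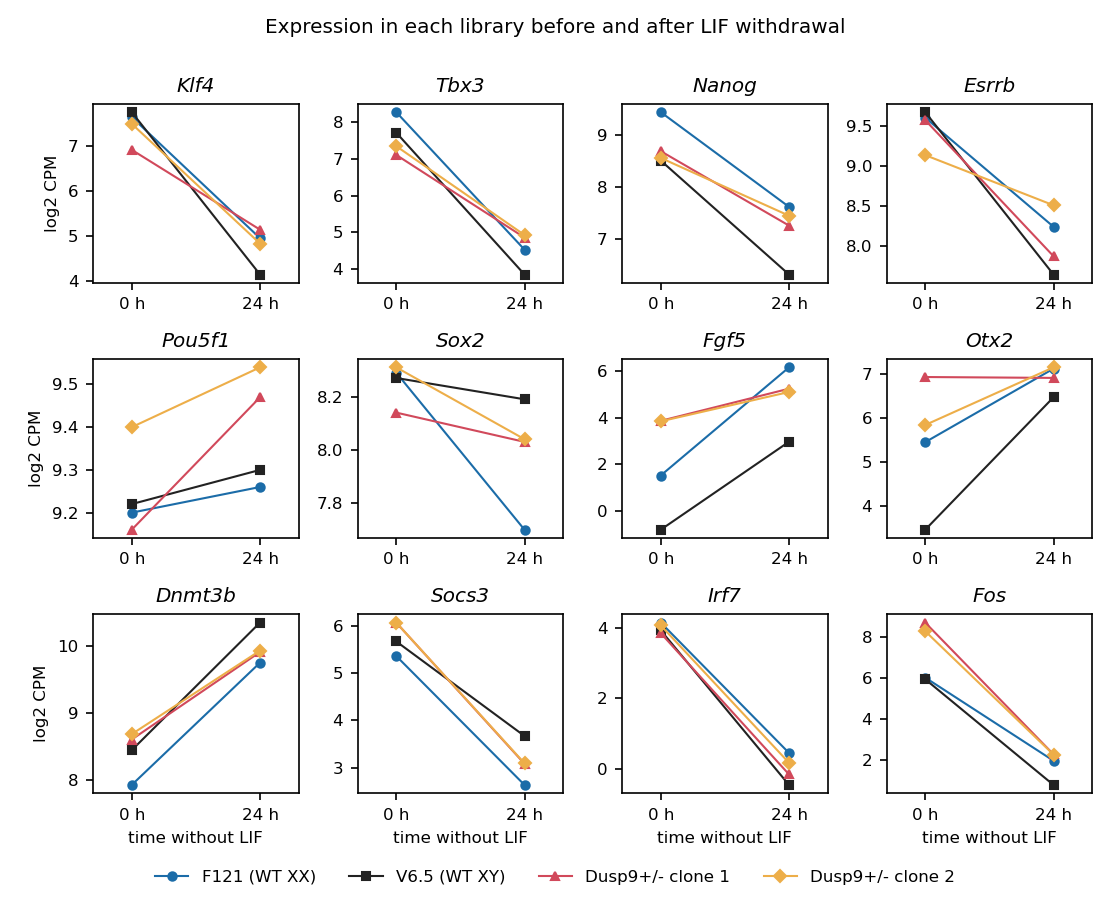
Level (log2 CPM) at 0 h and 24 h of selected naive, core, formative and signalling genes, each line joined across time. Klf4, Nanog and Socs3 are lower at 24 h in all 4 lines, while Pou5f1 keeps overlapping levels.

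In the LIF pathway itself, 9 of 18 tested members were called lower and 4 higher (median -0.26), beside 15.9% and 16.8% of all genes. Higher and lower calls numbered 1 and 9 with the block and without F121, 2 and 9 with the covariate and without V6.5, 1 and 8 without clone 1, 1 and 6 without clone 2. The ligand-binding subunit Lifr changed by -0.07 ± 0.10 (adjusted p = 0.608) and was not called. Its signalling partner Il6st fell 1.53-fold (-0.61 ± 0.10, adjusted p = 0.00447). Osmr, the oncostatin M receptor that also pairs with Il6st, fell 5.99-fold (-2.58 ± 0.27, adjusted p = 0.000856), and Il6ra, chosen after its values were seen, 3.17-fold (-1.66 ± 0.33, adjusted p = 0.00816). Of the kinases, Jak2 fell 1.68-fold (-0.75 ± 0.11, adjusted p = 0.00259). Stat3 went from 7.30, 7.49, 6.74 and 6.71 at 0 h to 6.00, 5.83, 5.47 and 5.61 at 24 h. It was lower in every line without overlap, a 2.52-fold decrease (-1.34 ± 0.10, adjusted p = 0.000361).

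Of 31 tested LIF and Stat3 target genes, 14 were called lower and 3 higher (Gbx2, Myc and Dnmt3l), with a median of -0.28. Of all genes, 15.9% were called lower and 16.8% higher. Stat factors bind palindromes of the form TTCNNNGAA. This motif, which is its own reverse complement, lay in the RefSeq promoter (250 bases before to 50 after a start, GRCm38.p6) of 5 of the 23 members that had one (21.7%), against 9.55% of the 27025 genes with a promoter in the table. A gene counts where any of its promoters holds the motif. The stricter form TTCCNGGAA, whose matches are also matches of the first, was in 2 of 23 (8.7%) against 1.35% of all genes. Counted by single promoters, TTCNNNGAA lay in 6 of the members' 29 (20.7%) against 8.3% of 32851, and TTCCNGGAA in 2 (6.9%) against 1.15%. Of 11 members called lower with a promoter, 3 held TTCNNNGAA in it. A match describes the letters only. The 250 bases before the start are shown for the called members with a match, on the gene's strand with matches in capitals, because these are the promoters of the genes whose falls or rises follow.

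Socs3 (chr11:117969367-117969616, minus strand): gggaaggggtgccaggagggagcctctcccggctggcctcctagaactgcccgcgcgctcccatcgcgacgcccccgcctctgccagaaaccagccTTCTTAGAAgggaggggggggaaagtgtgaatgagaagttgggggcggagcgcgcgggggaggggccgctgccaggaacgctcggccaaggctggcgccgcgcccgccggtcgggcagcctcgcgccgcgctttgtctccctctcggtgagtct
Bcl6, first start (chr16:23988853-23989102, minus strand): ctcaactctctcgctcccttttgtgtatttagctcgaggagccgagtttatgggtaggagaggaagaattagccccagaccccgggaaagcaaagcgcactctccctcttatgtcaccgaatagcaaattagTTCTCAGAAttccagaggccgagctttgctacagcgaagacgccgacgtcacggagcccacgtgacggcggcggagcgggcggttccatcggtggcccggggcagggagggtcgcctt
Bcl6, second start (chr16:23981284-23981533, minus strand): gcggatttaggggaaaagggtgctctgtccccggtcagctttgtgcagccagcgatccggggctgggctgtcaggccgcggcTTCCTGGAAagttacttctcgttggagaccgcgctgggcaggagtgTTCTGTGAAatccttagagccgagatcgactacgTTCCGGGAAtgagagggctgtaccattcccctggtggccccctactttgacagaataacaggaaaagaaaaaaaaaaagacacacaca
Zfp36 (chr7:28379229-28379478, minus strand): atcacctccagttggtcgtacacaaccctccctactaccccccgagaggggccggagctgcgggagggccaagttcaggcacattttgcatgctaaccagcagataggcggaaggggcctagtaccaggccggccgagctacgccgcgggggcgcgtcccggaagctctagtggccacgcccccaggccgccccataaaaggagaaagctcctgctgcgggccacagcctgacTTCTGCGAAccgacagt
Dnmt3l (chr10:78049592-78049841, plus strand): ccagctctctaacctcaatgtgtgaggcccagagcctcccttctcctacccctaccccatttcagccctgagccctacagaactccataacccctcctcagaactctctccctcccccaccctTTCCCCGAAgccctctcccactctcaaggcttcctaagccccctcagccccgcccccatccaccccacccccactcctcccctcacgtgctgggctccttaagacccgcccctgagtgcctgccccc

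Socs3, the feedback inhibitor of this receptor, whose match TTCTTAGAA begins 154 bases before the start, stood at 5.37, 5.68, 6.08 and 6.08 at 0 h and 2.63, 3.67, 3.08 and 3.09 at 24 h. Every 24 h library lay below every 0 h library, and the decrease was 6.43-fold (-2.68 ± 0.17, adjusted p = 0.000218). Bcl6, a transcriptional repressor chosen after its values were seen, has 1 match before its first start and 3 before the second, and its level went from 2.25, 2.53, 2.19 and 2.30 to 0.16, 0.87, 1.12 and 0.56. It fell 3.13-fold without overlap (-1.65 ± 0.21, adjusted p = 0.00153). Because its levels were low, the size depends on the offset, with -1.26 for log2(CPM + 1) and -0.61 for log2(CPM + 5). Zfp36, which destabilises AU-rich mRNAs, fell 1.74-fold (-0.80 ± 0.09, adjusted p = 0.00125). Dnmt3l, a cofactor of the de novo DNA methyltransferases, holds a match 127 bases before its start and rose 1.92-fold (0.94 ± 0.12, adjusted p = 0.00169), so that the called genes with a match went both ways. Of the other targets named by rule, Ier3 fell 1.84-fold (-0.88 ± 0.21, adjusted p = 0.0177), which did not hold without either clone. Junb had changes of -1.38, 0.63, 0.47 and -1.37 by line and was not called (adjusted p = 0.501).

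Most formative and primed genes rose. Of 27 tested, 18 were called higher and 1 lower (Trh), beside 16.8% and 15.9% of all genes. The median was 0.90 for the list and 0.87, 1.07, 0.74 and 0.73 by line. The list gave 14 and 2 without clone 1. Fgf5, the FGF of the postimplantation epiblast (chr5:98254184-98277033, GRCm38.p6), was at 1.53, -0.78, 3.86 and 3.84 at 0 h and 6.14, 2.97, 5.23 and 5.09 at 24 h. It was higher at 24 h in each line, but the times overlapped, since both clones at 0 h lay above V6.5 at 24 h, and the changes by line were 4.61, 3.75, 1.38 and 1.25 (2.75 ± 0.54, adjusted p = 0.00783). Pou3f1 (Oct6), an epiblast POU factor, rose from 2.42, 2.61, 3.85 and 4.50 to 5.45, 6.28, 5.70 and 5.36 without overlap, 5.11-fold (2.35 ± 0.40, adjusted p = 0.00463). Otx2, which redirects Oct4 to new enhancers in formative cells, was at 5.46, 3.47, 6.94 and 5.85 and then 7.13, 6.48, 6.92 and 7.16. It was higher in 3 lines and level in clone 1, and its call (1.49 ± 0.41, adjusted p = 0.0265) was lost without F121, V6.5 or clone 2 and with the covariate (adjusted p = 0.135).

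Pim2, a serine kinase, rose 5.32-fold (2.41 ± 0.25, adjusted p = 0.000856), and Grhl2, a regulator of epithelial enhancers in formative cells, 2.22-fold (1.15 ± 0.10, adjusted p = 0.000521). Trh, the thyrotropin-releasing hormone gene, was the exception and fell 4.93-fold (-2.30 ± 0.18, adjusted p = 0.000432). Fgf15, an FGF chosen after its values were seen, had changes of 3.2, 3.07, 0.74 and 0.80 by line (1.95 ± 0.44, adjusted p = 0.013) and was not called with the covariate (1.31 ± 0.47, adjusted p = 0.0742).

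Of 20 tested genes of the DNA methylation machinery, 7 were called higher and 1 lower (Tet2), beside 16.8% and 15.9% of all genes (median 0.11). The de novo methyltransferase Dnmt3b went from 7.92, 8.44, 8.60 and 8.68 to 9.75, 10.35, 9.91 and 9.93. It rose 2.98-fold without overlap (1.57 ± 0.12, adjusted p = 0.000423). Its relative Dnmt3a had changes of 1.89, 2.46, 0.21 and 1.75 (1.58 ± 0.30, adjusted p = 0.00735), smallest in clone 1, and was not called without clone 2. Hells, a chromatin remodeller needed for methylation, rose 1.54-fold (0.62 ± 0.07, adjusted p = 0.00103), and Tet2, which oxidises methylcytosine, fell 1.85-fold (-0.89 ± 0.13, adjusted p = 0.00271). Germline genes that DNA methylation silences had 2 called higher and 3 lower of 27 (median 0.13). Other fits of this list gave 3 and 1 with the covariate and without V6.5, 1 and 3 with the block, 2 and 1 without F121, 1 and 1 without clone 1, 0 and 0 without clone 2. Dazl (-0.05 ± 0.18, adjusted p = 0.86) and Mael (0.13 ± 0.15, adjusted p = 0.539) were not called, and Sycp3, of the meiotic chromosome axis, fell 2.78-fold (-1.48 ± 0.25, adjusted p = 0.00496), but was not called without clone 2.

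Of 35 tested genes of the FGF and ERK pathway, 10 were called higher and 5 lower, beside 16.8% and 15.9% of all genes (median 0.20). These numbers were 8 and 3 without clone 1, 6 and 3 without clone 2. The feedback inhibitor Spry4 was at 5.59, 5.98, 6.07 and 6.41 at 0 h and 6.81, 7.36, 7.53 and 7.45 at 24 h. It rose 2.42-fold without overlap (1.27 ± 0.09, adjusted p = 0.000361). Dusp6, an ERK phosphatase, rose 2.26-fold (1.18 ± 0.13, adjusted p = 0.000996), the receptor Fgfr2 2.07-fold (1.05 ± 0.12, adjusted p = 0.00107), and the ephrin receptor Epha4 fell 2.16-fold (-1.11 ± 0.12, adjusted p = 0.00101).

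Most immediate-early genes, which growth factors and stress induce rapidly, fell, among them Fos and Egr1, which also stand in the Stat3 target and ERK lists. Of 22 tested, 15 were called lower and 1 higher (Myc), beside 15.9% and 16.8% of all genes, with a median of -0.84. The numbers were 0 and 10 without clone 2. Fos was at 6.02, 5.94, 8.70 and 8.28 at 0 h and 1.97, 0.79, 2.28 and 2.27 at 24 h. All 24 h libraries lay far below those at 0 h, a 42.4-fold decrease (-5.41 ± 0.34, adjusted p = 0.000218). Fosb had 656, 536, 2595 and 3419 reads at 0 h and 5, 6, 12 and 9 at 24 h, the largest decrease named by rule at 136-fold (-7.09 ± 0.32, adjusted p = 0.000111). Egr1 and Jun had changes of -0.96, -1.31, -3.07 and -2.88 and of -0.99, -0.55, -2.20 and -2.70 by line (adjusted p = 0.00438 and 0.00876), and Jun was not called without either clone. Atf3, a stress-induced factor, fell 7.55-fold (-2.92 ± 0.22, adjusted p = 0.000432). Myc rose 2.6-fold (1.38 ± 0.28, adjusted p = 0.00962), with changes of 0.40, 1.69, 2.42 and 1.01 by line, and was not called without clone 2.

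In the BMP list 3 of 25 tested were called higher and 6 lower (median -0.15), beside 16.8% and 15.9% of all genes. The counts were 1 and 5 without F121, 1 and 7 without clone 1, 1 and 0 without clone 2. Id1, a BMP-induced inhibitor of differentiation factors, had changes of 0.75, -0.04, 3.18 and 1.83 and was called (1.43 ± 0.46, adjusted p = 0.0477), but not without F121 or either clone, nor with line as a block (adjusted p = 0.0709). Its relative Id3 had changes of -0.78, -0.58, 1.70 and 0.55 (adjusted p = 0.72) and the ligand Bmp4 of -0.94, -1.99, 0.30 and -0.22 (adjusted p = 0.129); neither was called. Msx1, a BMP-responsive homeobox gene, rose 4.53-fold (2.18 ± 0.21, adjusted p = 0.000738) and the BMP antagonist Grem1 fell 5.05-fold (-2.34 ± 0.42, adjusted p = 0.00572), with a change of -0.45 in clone 1 and no call without clone 2.

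The Nodal list had 3 called higher and 4 lower of 20 (median -0.05), beside 16.8% and 15.9% of all genes. Lefty2, an inhibitor that Nodal induces, fell 3.37-fold (-1.75 ± 0.20, adjusted p = 0.00115). Lefty1 had changes of 1.12, 1.16, -0.70 and -1.85 and was not called (adjusted p = 0.927), and the wild-type lines and the clones went opposite ways. Foxh1, the DNA-binding partner of Smad2, rose 1.8-fold (0.85 ± 0.08, adjusted p = 0.000738), Skil, a Smad co-repressor, 2.52-fold (1.33 ± 0.14, adjusted p = 0.000979), and Nodal itself 1.34-fold (0.42 ± 0.13, adjusted p = 0.0424), but was not called without F121 or either clone, nor with line as a block (adjusted p = 0.0736). Of 18 Wnt targets, 3 were called higher and 6 lower (median -0.14), against 5 and 4 with the covariate, 3 and 3 without V6.5, 1 and 1 without clone 2. Axin2, the most direct of them, was not called (-0.15 ± 0.13, adjusted p = 0.417), while Lef1, a Wnt effector, rose 3.75-fold (1.91 ± 0.23, adjusted p = 0.00139).

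Most interferon-stimulated genes, the antiviral programme that type I interferon switches on, fell at 24 h. Of 30 tested, 23 were called lower and 0 higher, beside 15.9% and 16.8% of all genes. The median was -1.38 for the list and -1.24, -2.45, -1.13 and -1.48 by line. The median was below 0 in each line, and the part of other cells in these values was not tested. Irf7, the regulator that amplifies the response, was at 4.16, 3.94, 3.86 and 4.08 at 0 h and 0.45, -0.46, -0.16 and 0.17 at 24 h. It fell 16.1-fold, with no overlap and similar changes in the lines (-4.0 ± 0.18, adjusted p = 0.000111). Isg15, a ubiquitin-like modifier, went from 4.67, 4.17, 4.14 and 4.08 to 2.63, -0.29, 1.91 and 1.37 (-2.86 ± 0.37, adjusted p = 0.00166), and fell furthest in V6.5.

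Usp18, which removes Isg15 from proteins, fell 17.1-fold (-4.10 ± 0.22, adjusted p = 0.000125), Ifit3 11.9-fold (-3.57 ± 0.41, adjusted p = 0.00114) and Ifi27 3.81-fold (-1.93 ± 0.14, adjusted p = 0.000361). Chosen after their values were seen, the viral RNA sensor Ifih1 fell 3.84-fold (-1.94 ± 0.28, adjusted p = 0.00234), the light chain of class I antigen presentation B2m 3.97-fold (-1.99 ± 0.22, adjusted p = 0.000979), and the class I heavy chain H2-D1 2.64-fold (-1.40 ± 0.14, adjusted p = 0.000856), which shares near-identical sequence with other class I genes. Irgm1, a GTPase, behaved differently by line, with changes of 0.09, -2.20, 0.15 and 0.33, and was not called (-0.40 ± 0.38, adjusted p = 0.442).

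The lists of lineage markers had no direction in common, and their counts stand beside 16.8% called higher and 15.9% lower of all genes. Of 15 tested primitive streak and mesendoderm genes 3 were called higher and 4 lower, of 16 neuroectoderm genes 3 and 6, of 16 primitive endoderm genes 2 and 6, and of 16 trophoblast genes 3 and 1 (medians -0.01, -0.09, -0.22 and 0.08). The streak counts became 1 and 2 without F121, 1 and 4 without clone 1, 2 and 0 without clone 2. The neuroectoderm counts became 5 and 3 with the covariate, 3 and 1 without clone 2, and those of primitive endoderm 1 and 5 with the covariate, 1 and 1 without clone 2. For trophoblast they were 3 and 0 with the covariate, 2 and 0 without F121, 1 and 1 without clone 1, 1 and 2 without clone 2. T (Brachyury), the mesoderm factor, had 17, 7, 31 and 73 reads at 0 h and 6, 2, 17 and 14 at 24 h and fell (-1.34 ± 0.27, adjusted p = 0.00891), although not in the fit without clone 2. Eomes was not called (0.06 ± 0.31, adjusted p = 0.894), and Mixl1 was below the level tested. Among neural genes, Sox1, the earliest marker of neuroectoderm, had changes of 1.70, 2.51, 1.5 and 0.55 and rose 2.96-fold (1.56 ± 0.29, adjusted p = 0.00648), and its X-linked relative Sox3 3.14-fold (1.65 ± 0.21, adjusted p = 0.00157). Pax6 (0.58 ± 0.27, adjusted p = 0.13) and Nes (0.02 ± 0.17, adjusted p = 0.924) were not called.

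Lama1, a laminin chain of basement membrane and primitive endoderm, fell 4.56-fold (-2.19 ± 0.17, adjusted p = 0.000432). The defining primitive endoderm markers in the table summed to 74.3, 50.2, 39.2 and 51.4 CPM at 0 h and 40.0, 13.9, 29.4 and 19.4 at 24 h. Their sum was lower at 24 h in each line. The defining trophoblast markers summed to 2.63, 2.1, 17.2 and 15.8 and then 2.29, 2.0, 22.8 and 32.2 CPM, higher in the clones than in the wild-type lines at both times. Pdgfra, which fibroblasts and primitive endoderm share, had changes of -2.25, -3.03, -0.52 and -2.63 and fell (-2.11 ± 0.36, adjusted p = 0.00484), smallest in clone 1, with no call without clone 2. Among two-cell-like genes Zfp352 alone of the defining markers was in the table, below the level tested, and the 3 other members tested gave no call.

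Of 29 tested fibroblast genes, 15 were called lower and 0 higher, beside 15.9% and 16.8% of all genes. The median was -1.0 for the list and -1.21, -1.53, 0.51 and -0.93 by line. Other fits called 5 and 9 with the covariate, which sums these same genes, 0 and 7 without F121, 0 and 8 without V6.5, 0 and 24 without clone 1, 0 and 5 without clone 2. Col1a1, the main collagen of fibroblasts, had changes of -1.34, -1.28, 2.87 and -0.63 and was not called (adjusted p = 0.925). Col3a1 had changes of -3.0, -3.47, 0.45 and -2.34 (-2.09 ± 0.55, adjusted p = 0.0241), which did not hold without F121, V6.5 or clone 2. Loxl2, a collagen crosslinking enzyme, fell in every line with similar size (-1.33 ± 0.14, adjusted p = 0.000856).

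The epithelial and mesenchymal list had 4 called higher and 6 lower of 31 (median -0.11), beside 16.8% and 15.9% of all genes. The counts were 2 and 5 with the covariate, 1 and 4 without clone 2. The adherens junction gene Cdh1 (E-cadherin) rose 1.25-fold (0.32 ± 0.06, adjusted p = 0.0088), but was not called without clone 2 or with the covariate (0.24 ± 0.08, adjusted p = 0.052). N-cadherin (Cdh2), with changes of -0.89, -0.80, 1.43 and -0.22, was not called (adjusted p = 0.817). The intermediate filament gene Vim had changes of -1.45, -1.53, 0.41 and -1.55 (-1.03 ± 0.30, adjusted p = 0.0345), and its call was lost without F121, V6.5 or clone 2, with the block (adjusted p = 0.0616) and with the covariate (adjusted p = 0.0578). Zeb2, a repressor of epithelial genes, fell 2.71-fold (-1.44 ± 0.19, adjusted p = 0.00198). For Col1a1, Col3a1, Cdh2 and Vim, clone 1 as labelled was the line that departed from the others, as for the summed fibroblast markers. The part of other cells in these values was not tested, since Col1a1, Col3a1 and Vim are themselves part of the covariate.

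Of 26 tested glycolysis and hypoxia genes, 14 were called lower and 1 higher, beside 15.9% and 16.8% of all genes, with a median of -0.49. With the block 13 were lower, and the other fits gave 0 and 19 with the covariate, 0 and 15 without F121, 0 and 14 without V6.5, 0 and 11 without clone 1, 0 and 9 without clone 2. Slc2a3, a high-affinity glucose transporter, went from 10.73, 10.26, 11.04 and 10.96 to 9.24, 8.44, 9.42 and 9.60. It fell 2.97-fold, by nearly the same amount in each line (-1.57 ± 0.08, adjusted p = 0.000125). Aldoc, an aldolase, fell 4.4-fold (-2.14 ± 0.27, adjusted p = 0.00148), Vegfa, the hypoxia-induced growth factor, 2.54-fold (-1.34 ± 0.13, adjusted p = 0.000738) and the hexokinase Hk2 1.31-fold (-0.39 ± 0.06, adjusted p = 0.0023). Ldha (-0.20 ± 0.12, adjusted p = 0.222) and Pdk1 (-0.51 ± 0.22, adjusted p = 0.116) were not called.

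Cholesterol and fatty acid synthesis genes were called lower in 9 of 28 cases and higher in 1, beside 15.9% and 16.8% of all genes (median -0.48). The medians by line were 0.07, -0.15, -0.88 and -0.91, lower in the clones than in the wild-type lines. Calls were 1 and 15 with the covariate, 0 and 16 without F121, 0 and 9 without V6.5, 0 and 1 without clone 1, 1 and 1 without clone 2. Insig1, a sensor that holds back the sterol regulator Srebf2, had changes of -0.25, -0.86, -1.97 and -1.92 (-1.25 ± 0.27, adjusted p = 0.0115). Hmgcs1, an early enzyme of the mevalonate pathway, had changes of -0.02, -0.27, -0.99 and -0.98 (-0.57 ± 0.16, adjusted p = 0.0316). Both calls were lost without either clone, and that of Hmgcs1 with line as a block (adjusted p = 0.0573). Acss2, which makes acetyl-CoA from acetate, fell in all lines (-0.88 ± 0.14, adjusted p = 0.00401), and Fasn was not called (0.33 ± 0.12, adjusted p = 0.0626).

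Of 9 mitochondrially encoded transcripts 7 were called lower and 0 higher (median -0.45), beside 15.9% and 16.8% of all genes. Calls higher and lower were 0 and 3 without F121, 0 and 4 without clone 1. The large ribosomal RNA mt-Rnr2, which has the smallest p of any gene named here, was at 10.64, 11.15, 10.59 and 10.61 at 0 h and 8.80, 9.40, 9.00 and 8.93 at 24 h and fell 3.28-fold (-1.71 ± 0.06, adjusted p = 5.1e-05). The protein-coding mt-Cytb fell by less (-0.39 ± 0.10, adjusted p = 0.025) and was not called without F121, V6.5 or clone 1 or with the covariate (adjusted p = 0.106), and mt-Nd1 was not called (-0.38 ± 0.13, adjusted p = 0.0615). Ribosome biogenesis and Myc target genes were called higher in 17 of 29 cases and lower in 0 (median 0.32), against 10 and 0 without clone 1, 2 and 0 without clone 2. Srm, spermidine synthase, rose 1.51-fold (0.59 ± 0.09, adjusted p = 0.00349), while the nucleolar proteins Ncl (0.02 ± 0.06, adjusted p = 0.863) and Npm1 (0.07 ± 0.06, adjusted p = 0.425) were not called.

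Cell cycle genes had 7 called higher and 6 lower of 35 (median -0.06), near the 16.8% and 15.9% of all genes. The counts were 4 and 4 without V6.5, 2 and 4 without clone 1, 2 and 1 without clone 2. The mitotic cyclin Ccnb1 fell 1.41-fold (-0.50 ± 0.08, adjusted p = 0.0034), Ccne1, the cyclin of S-phase entry, rose 1.37-fold (0.45 ± 0.09, adjusted p = 0.00931), but was not called without either clone, while Ccnd1 was not called (0.22 ± 0.11, adjusted p = 0.169). Of 18 p53 targets, 2 were called higher and 3 lower (median -0.04), against 1 and 2 with the block, 3 and 1 with the covariate, 1 and 3 without F121, 1 and 1 without V6.5, 1 and 4 without clone 1, 1 and 0 without clone 2. The cell cycle inhibitor Cdkn1a fell 1.49-fold (-0.57 ± 0.14, adjusted p = 0.0203), but was not called without V6.5 or clone 2 or with the covariate (-0.39 ± 0.17, adjusted p = 0.119), and Mdm2 was not called (-0.03 ± 0.08, adjusted p = 0.77). Apoptosis genes had 2 called higher and 2 lower of 16 (median 0.14), against 2 and 1 with the block and without V6.5, 1 and 0 without clone 1 or clone 2. Bcl2l11 (Bim), a death-promoting BH3 protein, rose in each line, 1.87-fold (0.90 ± 0.10, adjusted p = 0.000957), while the survival genes Bcl2 (0.14 ± 0.21, adjusted p = 0.64) and Mcl1 (0.00 ± 0.13, adjusted p = 0.98) were not called.

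At the X-inactivation centre, calls were higher for 5 of 9 genes and lower for 0 (median 0.71), beside 16.8% and 15.9% of all genes. The counts were 3 and 1 with the covariate, 2 and 0 without clone 2. Xist went from 4.24, -0.02, 7.45 and 7.86 to 6.41, 0.45, 8.16 and 8.11. It rose most in F121 (0.90 ± 0.28, adjusted p = 0.0425), but the call was lost with the block (adjusted p = 0.0707), with the covariate (adjusted p = 0.128) and without V6.5 or either clone. Its antisense partner Tsix was not called (0.34 ± 0.12, adjusted p = 0.0621). The strand used in counting is not given in the sources used here, so reads of this pair cannot be told apart. Jpx, an activator of Xist, had changes of 2.10, 2.17, 0.22 and 1.76 (1.56 ± 0.34, adjusted p = 0.0113) and was not called without clone 2. Over all X-linked genes, 101 were called higher and 62 lower of 555, beside 2202 and 2092 of 13184 autosomal genes. The median change was 0.03 against 0.02 for autosomal genes. The X-linked counts were 78 and 37 without F121, 65 and 44 without clone 1, 37 and 23 without clone 2.

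Imprinted genes were called higher in 10 of 30 cases and lower in 6 (median 0.30), beside 16.8% and 15.9% of all genes. The counts were 9 and 3 without V6.5, 7 and 3 without clone 1, 8 and 1 without clone 2. Mest rose 1.83-fold (0.87 ± 0.08, adjusted p = 0.000645), Snrpn 1.66-fold (0.73 ± 0.07, adjusted p = 0.000639) and Magel2 4.55-fold (2.19 ± 0.27, adjusted p = 0.00139), all 3 expressed from the paternal allele. Of the always-named members, H19 had changes of -0.95, -2.61, -0.27 and -0.04, Igf2 of -1.68, -1.70, 0.21 and 1.13 and Meg3 of 0.26, 0.56, -0.26 and 1.02, and none was called (adjusted p = 0.0815, 0.432 and 0.169).

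**Figure D4:**
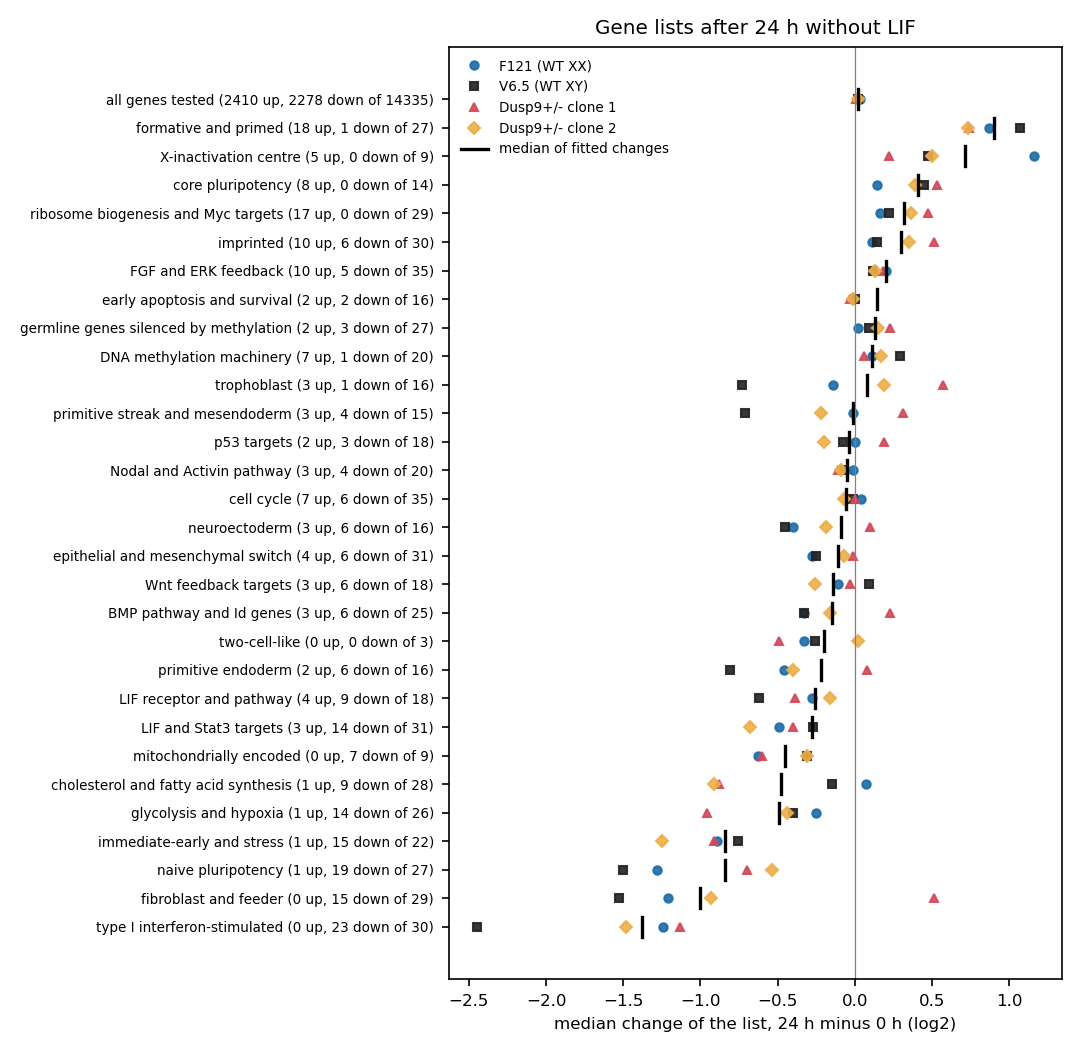
Median change at 24 h (log2, horizontal axis) of the tested members of each gene list, with a point for each line, a black bar for the median of the fitted changes and, in brackets, the numbers called. Interferon-stimulated and naive genes have medians below 0 in all 4 lines, and for fibroblast genes clone 1 as labelled lies above 0 and the other lines below.

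The 12 largest increases that shared direction in all lines, among genes reaching 4 CPM, included Bcl11a, a zinc-finger repressor known from haematopoiesis and brain (chr11:24076564-24173558, GRCm38.p6). It stood at 1.14, 0.57, 0.47 and 0.09 at 0 h and 4.93, 4.84, 3.66 and 3.58 at 24 h. The times were far apart, a 12.8-fold rise (3.68 ± 0.20, adjusted p = 0.00014). From such low levels at 0 h the size depends on the offset, with 3.10 for log2(CPM + 1) and 1.93 for log2(CPM + 5). Grm6, a glutamate receptor, had 11, 0, 42 and 54 reads at 0 h and 213, 50, 295 and 291 at 24 h and rose by 3.50 (adjusted p = 0.000946), a value that rests on few reads at 0 h. Next to them were Mir124a-1hg (3.47 ± 0.38), the host transcript of a neuronal miRNA, Vrtn (3.16 ± 0.29), named for its effect on vertebra number, and Ccno (3.09 ± 0.42), an atypical cyclin. Sall2 (2.49 ± 0.26), Rxrg (2.68 ± 0.26), a retinoid X receptor, and Wt1 (2.58 ± 0.51), a zinc-finger factor of kidney and gonad, also rose, with Fgf5 and Pim2, described above, and the predicted genes Gm44777 and Gm45110. Adjusted p-values of these 12 ran from 0.00014 to 0.00839.

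Among the 12 largest decreases, Fosb, Fos, Usp18, Irf7 and Ifit3 belong to the lists above. Of the others, Rgs1, a brake on chemokine receptor signalling, fell 18.2-fold (-4.18 ± 0.30, adjusted p = 0.000369). Cd14, a co-receptor for bacterial lipopolysaccharide, went from 3.28, 2.70, 2.40 and 2.81 to 0.26, -0.65, -0.79 and -1.18. It fell 10.4-fold without overlap (-3.39 ± 0.21, adjusted p = 0.000218). At these low levels the size depends on the offset, with -2.37 for log2(CPM + 1) and -1.10 for log2(CPM + 5). Ly6g6e fell 10.5-fold (-3.39 ± 0.17), Grin1, an NMDA receptor subunit, 10.6-fold (-3.41 ± 0.34), Pgc, a pepsinogen, 10.0-fold (-3.33 ± 0.32) and Ifi204 10.2-fold (-3.35 ± 0.33), the last with close paralogs whose 36-bp reads may be shared. Mmp3, a matrix protease of stromal cells, had changes of -3.58, -4.68, -1.5 and -4.35 (-3.53 ± 0.46, adjusted p = 0.00166), smallest in clone 1.

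The lines were then compared in how far they changed, as differences of the 24 h change. Between V6.5 and the 3 XX lines, 2 of 14335 genes (0.014%) differed. Ccl9, a chemokine, changed by -0.58, -4.43, 0.21 and -0.07 in the 4 lines (difference -4.28 ± 0.36, adjusted p = 0.0445), and Irgm1 by 0.09, -2.20, 0.15 and 0.33 (difference -2.39 ± 0.19, adjusted p = 0.0445). In both it was V6.5 that moved and the XX lines that stayed near 0; with 1 XY line this is a difference of that line, and the number called was 0 with the block, both larger offsets, no filter, a filter at 4 CPM, no mean trend, quantile scaling or voom on the recovered reads. Between the clones and F121 none differed (0%; 1766 at an unadjusted p under 0.05, none by voom), nor between V6.5 and F121 (0%; 612 unadjusted, none by voom).

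Between the clones and both wild-type lines together, a comparison added after the data were seen, 156 genes (1.09%) differed, 72 with a higher and 84 with a lower change in the clones. Of these, 96 had opposite signs in the 2 pairs of lines. Genes picked for a difference between these pairs are more likely to have opposite signs, so this count is no separate result. The fall of naive genes was smaller in the clones for 6 of 27 tested list members (Tfcp2l1, Klf5, Tbx3, Nr5a2, Jam2 and Fbxo15), beside a higher change in 72 of all 14335 genes. As a sum, the list began lower in the clones and did not end higher there. By line it summed to 7762, 7877, 5342 and 5304 CPM at 0 h and 3361, 3578, 3020 and 3253 CPM at 24 h. Tfcp2l1 itself began lower and ended higher in the clones. Tbx3 differed by 1.48 ± 0.15 (adjusted p = 0.0305), Klf5 by 1.07 ± 0.15 (adjusted p = 0.0419) and Tfcp2l1 by 1.06 ± 0.17 (adjusted p = 0.0451). Nr5a2, an Oct4-activating nuclear receptor, had changes of -1.41, -1.45, -0.06 and 0.06, with a fall in the wild-type lines and values near 0 in the clones (1.43 ± 0.13, adjusted p = 0.0305).

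The rise was smaller in the clones for 3 of 27 tested formative genes, beside a lower change in 84 of all 14335 genes. The 3 were Fgf5 (-2.87 ± 0.31, adjusted p = 0.0305), Fgf15 (-2.37 ± 0.19, adjusted p = 0.0305) and Dnmt3b (-0.59 ± 0.09, adjusted p = 0.0448). For Fgf5 the clones began higher, at 3.86 and 3.84 at 0 h against 1.53 and -0.78 in the wild-type lines. Car4, a carbonic anhydrase, was at 1.04, 1.31, 4.78 and 5.03 at 0 h and 5.01, 4.82, 5.45 and 5.32 at 24 h. It was higher at 24 h in each wild-type line and by less in the clones, with changes of 3.97, 3.50, 0.67 and 0.29 (-3.26 ± 0.24, adjusted p = 0.0274). Over all lines its change was 2.11 ± 0.59 (adjusted p = 0.0301), a call lost with the block (adjusted p = 0.0553), with the covariate (adjusted p = 0.178) and without F121, V6.5 or clone 2. Immediate-early genes fell further in the clones in 5 of 22 tested cases (Egr1, Jun, Fosb, Dusp1 and Egr2), beside 84 of all 14335 genes with a lower change. The list began higher in the clones and did not end lower there. By line it summed to 1108, 949.2, 2732 and 2623 CPM at 0 h and 618.9, 684.7, 982.6 and 874.9 CPM at 24 h. Egr2 went from 1.70, 0.75, 4.45 and 3.92 to 0.04, -0.46, -0.44 and 0.06, and its difference was -2.94 ± 0.43 (adjusted p = 0.0419), beside -1.84 ± 0.19 for Egr1 and -1.68 ± 0.23 for Jun.

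Cholesterol and fatty acid synthesis genes fell further in the clones in 9 of 28 tested cases, among them Hmgcs1, Insig1 and Dhcr7. Of all 14335 genes, 84 had a lower change in the clones. Dhcr7, an enzyme of the last steps, had changes of 0.09, -0.24, -1.53 and -1.59 (-1.49 ± 0.14, adjusted p = 0.0305). In the other direction, Nlrc3, an inhibitor of innate signalling, had changes of -1.51, -1.58, 1.30 and 2.32 (3.35 ± 0.39, adjusted p = 0.0314), and Thbs2, a matrix protein of mesenchymal cells, of -2.66, -2.74, 0.94 and -0.43 (2.96 ± 0.45, adjusted p = 0.0419). The serine protease gene Htra1 had changes of -1.32, -1.51, 0.57 and 1.6 (2.50 ± 0.32, adjusted p = 0.038), lower at 24 h in the wild-type lines and higher in the clones.

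These differences had limits. The number called was 0 without F121, without V6.5, with line as a block, without the filter on low values and without the mean trend, 95 without clone 1, 677 without clone 2 and 66 by voom. Fibroblast markers also moved differently, with a summed level lower at 24 h in both wild-type lines and clone 2 and higher in clone 1 as labelled. The labels do not say which bases of Dusp9 were changed, so its read level may not show the mutation. That level was below F121 in some clone libraries, but within or above the range of the wild-type lines in each. The difference is thus between the libraries labelled Dusp9+/- and those labelled wild type.

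**Figure D5:**
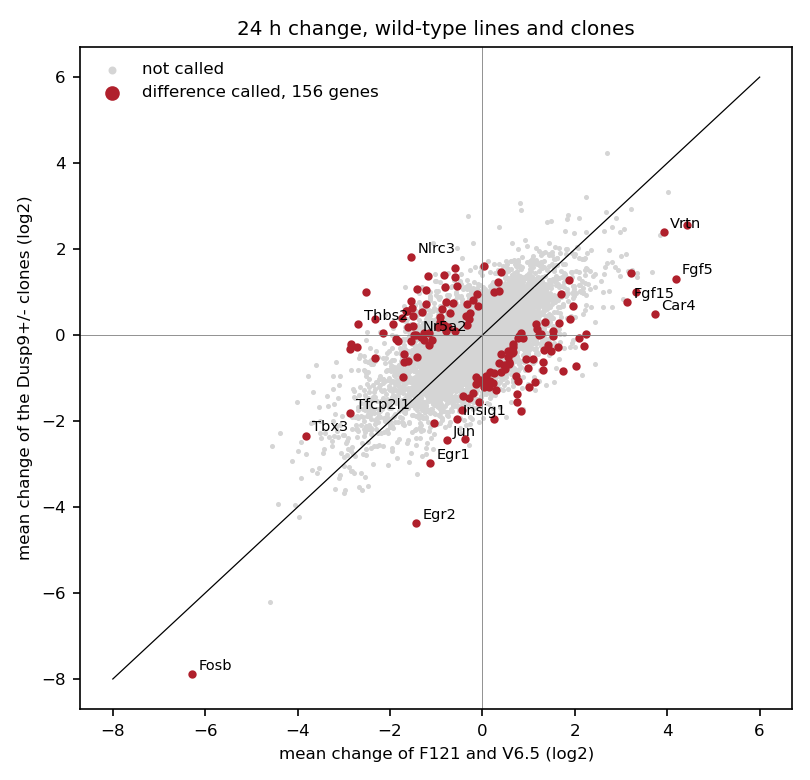
Change at 24 h (log2) averaged over the 2 clones (vertical axis) against that averaged over the 2 wild-type lines (horizontal axis) for the genes tested, with the 156 genes that differed marked. Car4 and Fgf5 lie below the diagonal, with smaller rises in the clones, and Nlrc3 and Thbs2 above it.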

How the data were processed

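RNA of 4 mouse ESC lines was read at 0 h and 24 h of LIF withdrawal (TRIzol extraction, stranded mRNA kit, single-end 36-bp reads, per the labels' protocols). Tools listed in the submitters' processing notes, without roles, are edgeR, featureCounts and STAR 2.5.3a, and the builds listed are mm10 and GRCm38. The authors deposited log2 CPM, a unit other than raw counts, with decimal commas, for 16687 gene symbols; 16 columns of the table belong to other samples and were not used. On the linear scale every deposited value is a floor of 0.183 CPM plus whole multiples of 1 read, so reads were recovered (100% within 0.01 read; 10241419 to 13346033 per library) and used for an alternative with voom.

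The fit took the 14335 genes whose CPM averaged 1 or more across the 8 libraries. It used limma 3.58.1 under R 4.3.3 with terms for genotype and time (4 residual degrees of freedom) and a mean trend in eBayes. Tests were two-sided, with p-values adjusted by Benjamini-Hochberg over these 14335 genes. Differences of changes were interaction terms with 2 or 3 residual degrees of freedom, in which single lines are assumed to vary like the others. The fits were tested on simulated data. Each line gives both times per the labels, so line pairs the samples; the deviations of its 0 h and 24 h libraries correlated at 0.66, 0.82, 0.34 and 0.56 with each other. Across the clones they correlated at 0.635 (clone 2 at 0 h, clone 1 at 24 h) and 0.574 (the reverse), above both clones' own values, so the pairing of the clones rests on the labels alone. With line as a block 3607 genes were called, 3602 of them among the 4688.

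The members, comparisons and 29 gene lists were chosen with earlier results of these data known. Genes were named by rule: Dusp9 and Xist; the 12 largest called increases and decreases with a shared direction in all lines and at least 4 CPM at the higher time; fixed members of each list and up to 3 further called members with the lowest p; the largest called differences between lines; and the 4 called genes with the widest range over lines. Genes outside this rule were chosen after their values were seen: Ddx3y, Eif2s3y, Kdm5d, Uty, Gbx2, the other list members given by name in parentheses, and those so marked in the text, together with the genes of the comparison of the clones with both wild-type lines. Positions and promoters are RefSeq's for GRCm38.p6, in which 15225 symbols matched directly, 362 by synonym and 1100 not at all. Reads of near-identical copies and of antisense pairs may be shared, since the strand setting of the counting is not given in the sources used here. Results of some genes are not reported here, also where the rule names them, and they stay in the fits and counts. The alternatives tried are other offsets, filters, scalings, voom, no trend, the block, leaving out each line or clone library, and single genotypes.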

Additional observations from a re-analysis of the deposited data

Results flagged for a closer look

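With 4 lines, 11 of 222 values checked had a line whose 24 h change stood apart from the other lines by Dixon's test, about the 5% that chance gives. In V6.5 these were Ccl9 (change -4.43), Irgm1 (-2.20), Pgc (-2.09), Msx1 (1.54) and Zic2 (1.58). Zic2 and Fgf4 were chosen after their values were seen. In clone 1 they were Col1a1 (2.87), Vim (0.41), Tdrd1 (0.52), Zfp281 (0.77) and Fgf4 (-0.16), and in clone 2 mt-Nd2 (-0.31). For Col1a1 and Vim, clone 1 as labelled was the line above the others, as for its summed fibroblast markers.

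The 24 h change also differed between groups of lines by an interaction test for 26 values. Between V6.5 and the 3 XX lines these were Ccl9 (-4.28) and Irgm1 (-2.39). The change was less positive or more negative in the clones than in both wild-type lines for Car4 (-3.26), Egr2 (-2.94), Fgf5 (-2.87), Pdzk1 (-2.61), Fgf15 (-2.37), Grm6 (-1.88), Egr1 (-1.84), Lrp2 (-1.77), Jun (-1.68), Fosb (-1.62), Vrtn (-1.54), Dhcr7 (-1.49), Insig1 (-1.39), Hmgcs1 (-0.84), Skil (-0.74) and Dnmt3b (-0.59). It was higher in the clones for Nlrc3 (3.35), Thbs2 (2.96), Pla2g4e (2.70), Htra1 (2.50), Tbx3 (1.48), Nr5a2 (1.43), Klf5 (1.07) and Tfcp2l1 (1.06). The comparison with the clones was added after the data were seen, and no gene was called in it without either wild-type line. Genes were named partly because they were called in these comparisons, so the 26 are no share of an independent set. Over all 14335 genes, 2 (0.014%) differed for V6.5 against the XX lines. For the clones against both wild-type lines, 156 (1.09%) differed.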

How the results depend on the processing

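The count of 4688 genes called at 24 h was between 3607 and 4994 under other offsets, filters, scalings, voom, no trend and line as a block (3607), and 1625 to 4158 when a clone library, a clone or a wild-type line was left out, with 1625 without clone 2, 2810 without clone 1 and 3086 without the 24 h library of clone 2. Calls that held without any 1 line numbered 1400. The clones' deviations correlated at -0.365 between times, so a crossed pairing was added, which called 4493 genes against 3607 with the labelled pairs. The 2 genes of V6.5 against the XX lines became 0 with log2(CPM + 1) or log2(CPM + 5), without the filter, at 4 CPM, with voom, without the trend, with quantile scaling and with line as a replicate block; leaving out a line gave 0 to 3. The 156 genes of the clones against both wild-type lines became 0 without the filter, without the trend and with line as a block, 66 with voom, and 0 to 677 when a line was left out. The comparisons of the clones and of V6.5 with F121 gave 0 calls in each alternative run and have no fit without F121. Of 147 called named genes, 99 stayed called in every alternative; the block ended 12 of the 147 calls. Signs turned in a fit that also called the gene for Col1a1 (1.34 with the fibroblast covariate, of which it is a part), Htra1 (1.08 in the clones alone), and Id3 (-0.68), Lefty1 (1.14), Nlrc3 (-1.54) and Pdzk1 (0.84) in the wild-type lines alone. None of these 6 was called over all lines. Other signs turned without a call, as for Cdh2 (-0.12 over all lines, 0.64 with the covariate). The cause of each of these shifts was not tested. Depth limits genes under about 1 CPM, and 1 library for each line and time limits every comparison between lines.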
